A study of Mus musculus with 6 samples.

Results

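The 37 genes described here encode the core machinery of autophagy and the receptors and sensors of mitophagy, the form of autophagy that removes mitochondria. They are a list of symbols with no threshold on measured values, drawn up with earlier results of these data known. The list runs from the ULK kinase complex that starts an autophagosome, through the enzymes and lipid carriers that build it, to the LC3 and GABARAP proteins on its membrane, the cargo receptors and the transcription factors TFEB and TFE3. All 37 were found among the 39059 genes of the count files and all 37 passed the filter on low counts, so they were compared within 1 fit over 14099 genes.

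The cells were satellite cells, which lie beneath the sheath of muscle fibres and rebuild them after injury, and they were sorted by flow cytometry from mouse hind limbs and lysed without culture for total RNA sequencing. 3 libraries, called HOM, came from mice homozygous for the Lmna Δ8-11 allele (Lmna Δ8-11 -/-), and 3 libraries, called WT, from Lmna Δ8-11 +/+ mice. The allele lacks exons 8 to 11 of Lmna, which encodes the nuclear lamins A and C, and it is carried by every cell of a HOM mouse and not by the satellite cells alone. Both genotypes were on the C57BL/6J background and at postnatal day 19.

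In autophagy, a flat membrane grows around a portion of cytoplasm, closes into an autophagosome and fuses with a lysosome, where the content is digested. LC3 and GABARAP proteins are cut by ATG4 proteases and joined to a membrane lipid by ATG7, ATG3 and the ATG12, ATG5 and ATG16L1 complex, and receptors that bind them bring in cargo such as ubiquitin-tagged protein or mitochondria. In satellite cells autophagy is known to help maintain quiescence and to be drawn on when the cells are activated.

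Gene reads ran from 7234298 to 9552751 in HOM libraries and from 6613636 to 8426578 in WT libraries, and the 37 genes had between 35 and 7324 reads each per library. The labels name 3 mice per condition but do not tie a library to an animal, so p-values cover the spread between these 6 samples and no more, and that spread may be technical. Lmna (chromosome 3, 88480147 to 88509956, minus strand, GRCm38) had 436, 375 and 451 CPM (reads per gene, scaled to the library total) in HOM replicates 1, 2 and 3, against 842, 939 and 1057 CPM in WT replicates 1, 2 and 3. Its log2 fold change was -1.17 (SE 0.14, edgeR adjusted p = 0.0010), and the count also covers exons outside the deletion. HOM replicate 2 and WT replicate 2 stood apart from the other libraries with 13027 and 13900 CPM of Gm42418, a gene that overlaps ribosomal RNA sequence, against 914 to 1797 CPM elsewhere. HOM replicate 2, WT replicate 2 and WT replicate 3 held 4498, 3074 and 4831 reads of 4 Y-linked genes, and the other libraries at most 3. Of 10 satellite cell markers, 7 were lower in HOM libraries, with summed levels of 1331 to 2148 CPM in HOM and 2625 to 2777 CPM in WT libraries, and 0 markers were at 0 in every library. RNA of other cell types was also abundant: markers of pericytes and smooth muscle summed to 10658 to 11431 CPM in HOM and 9773 to 13690 CPM in WT libraries, and those of fibro-adipogenic cells to 1329 to 2006 CPM in HOM and 3945 to 4274 CPM in WT libraries. Of the 8 fibro-adipogenic markers 4 were lower and 1, Pdgfra, was higher, and Col3a1 averaged 479 CPM in HOM and 2647 CPM in WT libraries. All 5 adipocyte markers that could be tested were higher. Adipocyte markers summed to 454 to 1035 CPM in HOM and 185 to 302 CPM in WT libraries. Most of each sum was Fabp4, at 354 to 615 CPM in HOM and 180 to 293 CPM in WT libraries. In bulk RNA, fewer cells of a type and less RNA per cell cannot be told apart, and the part of cell makeup in the results below was not tested.

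Of the 37 genes, 12 were higher in HOM than in WT libraries at an adjusted p under 0.05 (edgeR quasi-likelihood test, Benjamini-Hochberg adjustment over all genes tested), 1 was lower and 24 did not pass. Higher calls made up 32.4% of the list, against 9.67% of all genes tested, and lower calls 2.70%, against 11.5% of all genes tested. Calls in either direction made up 35.1% of the list and 21.1% of all genes. The 12 higher genes were Rb1cc1, Atg13, Pik3c3, Atg9a, Atg2a, Wipi2, Atg3, Atg4a, Map1lc3b, Gabarapl1, Optn and Bnip3, and the lower gene was Fundc1. All 13 are protein-coding genes, and their positions are given below on GRCm38, with reads counted over their exons. The median log2 fold change of the list was 0.29, against -0.0038 over all genes tested, and 28 of 37 log2 fold changes were positive (75.7%, against 49.6% of all genes). Among the 11112 genes that averaged 5 CPM or more, 10.5% were called higher. That floor keeps most of the genes tested and does not match them to the list in abundance. The part of abundance in the share of the list was not tested.

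Most of the changes were small. Only Bnip3 passed 2-fold among the 13 called genes, whereas 38.4% of all called genes did, and 6 of the 13 passed 1.5-fold. The HOM libraries lay above all WT libraries for 24 of the 37 genes (64.9%, against 20.2% of all genes tested) and below all WT libraries for 2 genes, Fundc1 and Atg5 (5.41%, against 20.6%). Of the 24 genes that did not pass, 8 had an adjusted p under 0.1, and all 8 log2 fold changes were positive. The share of all genes tested that missed the threshold in this way was not counted. Log2 fold changes had a median standard error of 0.12 in the list and 0.18 over all genes, so the list was measured with less error than the typical gene.

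**Figure D1:**
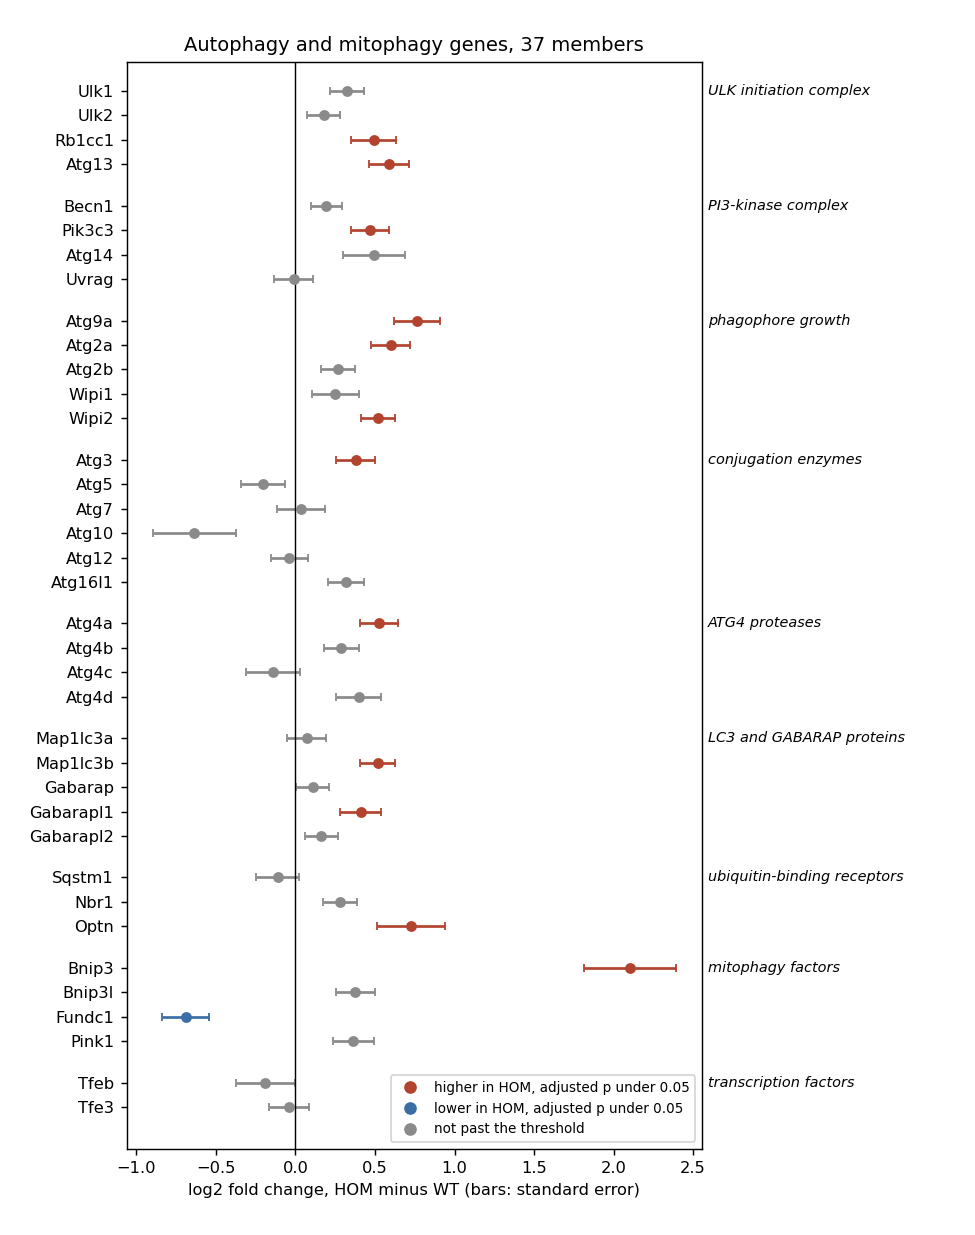
Log2 fold changes of the 37 genes (x axis, HOM minus WT), grouped by role down the page, with bars of 1 standard error from the fit over 3 HOM and 3 WT libraries. The 12 red points lie between 0.38 and 2.10, and the 1 blue point, Fundc1, at -0.69.

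The ULK complex receives the signal to start autophagy, and 2 of its 4 genes rose, with a median log2 fold change of 0.41. Atg13 (chr2:91674618-91710576, minus strand), which encodes the adaptor that links the ULK kinases to the rest of the complex, had 32.4, 30.4 and 30.8 CPM in HOM libraries and 19.3, 20.3 and 22.6 CPM in WT libraries. The lowest HOM library lay well above the highest WT library, and the log2 fold change was 0.59 (SE 0.13, edgeR adjusted p = 0.0108). Rb1cc1 (chr1:6206197-6276648, plus strand), which encodes the scaffold protein FIP200, had 245, 202 and 203 CPM in HOM libraries, against 149, 135 and 178 CPM in WT libraries. Here HOM replicate 1 stood above the other HOM libraries and WT replicate 3 above the other WT libraries, without overlap between genotypes (log2 fold change 0.49, SE 0.14, edgeR adjusted p = 0.0324). The kinase genes themselves did not pass. Ulk1 averaged 61.1 ± 1.71 CPM in HOM and 48.8 ± 2.19 CPM in WT libraries (SD, n = 3 each), just outside the threshold (log2 fold change 0.32, edgeR adjusted p = 0.0521). Ulk2 averaged 101 ± 5.29 CPM in HOM and 89.2 ± 4.19 CPM in WT libraries, with a 95% interval of -0.05 to 0.41 for its log2 fold change.

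The class III PI3-kinase complex marks the growing membrane with a phosphoinositide lipid, and 1 of its 4 genes rose. Pik3c3 (chr18:30272747-30348126, plus strand), which encodes its catalytic subunit VPS34, had 42.4, 41.5 and 41.4 CPM in HOM libraries and 32.8, 30.0 and 27.7 CPM in WT libraries. The HOM libraries were nearly equal and all above WT (log2 fold change 0.47, SE 0.12, edgeR adjusted p = 0.0202). Becn1, the regulatory subunit beclin 1, averaged 103 ± 2.32 CPM in HOM and 90.0 ± 0.246 CPM in WT libraries without passing (edgeR adjusted p = 0.179). Cntd1 overlaps 43.9% of its exon length on the opposite strand. Cntd1 had 34 reads in all HOM and 28 in all WT libraries, against 2494 and 2053 for Becn1. Atg14, which directs the complex to autophagosomes, had 27.1, 24.3 and 17.0 CPM in HOM and 17.6, 13.7 and 17.1 CPM in WT libraries, and HOM replicate 3 lay within the WT range (edgeR adjusted p = 0.0924). Uvrag, the alternative subunit that directs it to endosomes, averaged 45.3 ± 0.219 CPM in HOM and 45.7 ± 5.44 CPM in WT libraries.

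Of the 5 genes for growth of the phagophore, the open membrane sac, 3 rose, and their median log2 fold change of 0.52 was the highest of the role groups. Atg9a (chr1:75180860-75192196, minus strand) encodes the lipid scramblase carried on the vesicles from which the sac starts, and it had 25.7, 27.0 and 32.6 CPM in HOM libraries, against 15.6, 17.2 and 17.4 CPM in WT libraries. All HOM libraries were above all WT libraries, with HOM replicate 3 highest (log2 fold change 0.77, SE 0.14, edgeR adjusted p = 0.0060). Atg2a (chr19:6241668-6262335, plus strand) encodes a lipid transfer protein that feeds the growing sac, and it had 53.4, 52.6 and 52.5 CPM in HOM libraries and 38.1, 30.0 and 36.2 CPM in WT libraries. The spread lay almost wholly among the WT libraries, none of which reached the HOM values (log2 fold change 0.60, SE 0.12, edgeR adjusted p = 0.0085). Wipi2 (chr5:142627698-142670588, plus strand), whose product reads the phosphoinositide and recruits ATG16L1, had 145, 126 and 136 CPM in HOM libraries, against 93.2, 97.9 and 93.1 CPM in WT libraries. Its groups were also apart (log2 fold change 0.52, SE 0.11, edgeR adjusted p = 0.0083). The paralogues did not pass: Atg2b averaged 79.8 ± 1.57 CPM in HOM and 66.4 ± 5.80 CPM in WT libraries (adjusted p = 0.104), and Wipi1 averaged 32.2 ± 4.73 CPM in HOM and 27.0 ± 3.01 CPM in WT libraries with overlapping values (adjusted p = 0.253). The difference in response between paralogues was not tested.

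The 6 genes of the conjugation enzymes had no common direction: 1 rose, 3 log2 fold changes were negative and the median was -0.0021. Atg3 (chr16:45158785-45188538, plus strand), the E2-like enzyme that hands LC3 to the lipid, had 59.0, 48.2 and 51.3 CPM in HOM libraries and 38.5, 42.8 and 40.6 CPM in WT libraries. Its HOM libraries were all above WT, but the call lay at the threshold (log2 fold change 0.38, SE 0.12, edgeR adjusted p = 0.0491) and was lost without any 1 library other than HOM replicate 2, with adjusted p-values up to 0.164. Atg16l1, the membrane-binding part of the E3-like complex, averaged 54.8 ± 4.39 CPM in HOM and 43.9 ± 1.29 CPM in WT libraries without overlap and without passing (adjusted p = 0.0709). Atg5, its partner, was the only gene that did not pass with all HOM libraries below WT, at 20.98, 19.8 and 19.5 CPM in HOM and 21.4, 26.2 and 22.0 CPM in WT libraries (adjusted p = 0.319). Atg7, the E1-like enzyme, averaged 18.5 ± 2.22 CPM in HOM and 18.1 ± 1.35 CPM in WT libraries, and Atg12, a ubiquitin-like protein, 43.6 ± 3.66 CPM in HOM and 44.7 ± 1.34 CPM in WT libraries. Intervals for their log2 fold changes were -0.30 to 0.37 for Atg7 and -0.29 to 0.22 for Atg12. Atg10, the E2-like enzyme for ATG12, was the least abundant of the 37 genes in CPM, with 4.90, 4.35 and 6.28 CPM in HOM and 6.25, 10.7 and 7.36 CPM in WT libraries. HOM replicate 3 lay just above WT replicate 1, so the ranges overlapped, and the log2 fold change of -0.64 had an interval of -1.21 to -0.06 (SE 0.26, edgeR adjusted p = 0.109).

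Atg3 holds in its promoter the longer letters of the element that TFEB and TFE3 are known to bind, GTCACGTG on either strand, and its sequence is shown as the only one among the genes of the list searched that does. It is the 250 bases before the start of the gene in RefSeq on GRCm38.p6, at chr16:45158579-45158828 on the plus strand, with the matched letters in capitals.
Atg3: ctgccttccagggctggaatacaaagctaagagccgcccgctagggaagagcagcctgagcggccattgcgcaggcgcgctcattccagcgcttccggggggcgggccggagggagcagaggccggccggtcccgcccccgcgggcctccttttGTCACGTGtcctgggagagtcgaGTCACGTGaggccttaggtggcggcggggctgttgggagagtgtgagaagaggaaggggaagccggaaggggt
The letters start at 2 places, 96 and 73 bases before the start. Windows of 300 bases were searched where the RefSeq start lay within 100 bases of the first base of the annotated gene, which left 21 windows for 21 of the 37 genes and 15002 windows over all genes. The windows of Fundc1 and Atg7 belonged to starts farther inside the gene and were left out. GTCACGTG was in 1 of the 21 windows (4.76%, against 3.03% of all windows). The shorter E-box CACGTG, which lies within those letters, was in 3 of the 21 windows (14.3%, against 8.33%), those of Atg3, Atg5 and Bnip3. Of the searched genes, 2 of the 8 called and 1 of the 13 others held it.

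ATG4 proteases trim LC3 and GABARAP proteins before they are attached and release them afterwards, and 1 of the 4 genes rose. Atg4a (chrX:140956907-141164270, plus strand) had 37.6, 34.1 and 34.4 CPM in HOM libraries, against 25.2, 23.4 and 25.0 CPM in WT libraries. Both genotypes were tight and apart (log2 fold change 0.53, SE 0.12, edgeR adjusted p = 0.0133). It is uncertain as a count, since 63.6% of its 50-base stretches also occur in other annotated genes. Atg4a-ps shares the most, and 2 reads in all HOM and 4 in all WT libraries were assigned to it. Atg4b averaged 47.3 ± 0.606 CPM in HOM and 38.7 ± 1.80 CPM in WT libraries (log2 fold change 0.29, adjusted p = 0.0839), and Atg4d 22.7 ± 2.46 CPM in HOM and 17.2 ± 0.481 CPM in WT libraries (log2 fold change 0.40, adjusted p = 0.0689). Neither overlapped between genotypes, and neither passed. Of the exon length of Atg4d, 19.3% is overlapped on the opposite strand by Kri1. Kri1 had 799 reads in all HOM and 466 in all WT libraries, against 548 and 393 for Atg4d, whose count is uncertain to that extent. Atg4c, the least abundant protease gene, averaged 9.95 ± 0.607 CPM in HOM and 11.0 ± 0.691 CPM in WT libraries, with overlap.

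Of the 5 genes for LC3 and GABARAP proteins, which coat the autophagosome and hold its cargo receptors, 2 rose and all 5 log2 fold changes were positive. Map1lc3b (chr8:121590361-121598760, plus strand), the gene of the LC3 form most used as an autophagosome marker, had 312, 311 and 295 CPM in HOM libraries, against 215, 215 and 212 CPM in WT libraries. The libraries of each genotype hardly differed among themselves, and the genotypes were far apart relative to that spread (log2 fold change 0.52, SE 0.11, edgeR adjusted p = 0.0100). Gabarapl1 (chr6:129533160-129542346, plus strand) had 220.4, 227 and 178 CPM in HOM libraries and 144, 161 and 166 CPM in WT libraries. HOM replicate 3 lay near the WT range, and the call stood close to the threshold (log2 fold change 0.41, SE 0.13, edgeR adjusted p = 0.0473). It was lost without HOM replicate 1 or 2 or any 1 WT library, with adjusted p-values of 0.0749 to 0.174. The other 3 did not pass: Gabarap averaged 182 ± 4.25 CPM in HOM and 169 ± 7.66 CPM in WT libraries, and Gabarapl2 71.2 ± 1.43 CPM in HOM and 63.7 ± 3.55 CPM in WT libraries, both without overlap. Map1lc3a averaged 99.0 ± 8.58 CPM in HOM and 94.3 ± 11.6 CPM in WT libraries, with overlap and an interval of -0.20 to 0.35 for its log2 fold change.

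**Figure D2:**
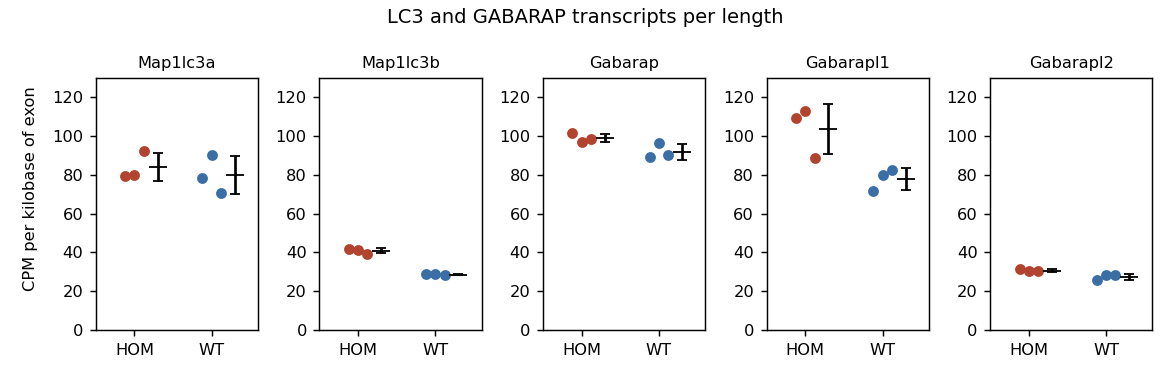
Level of the 5 LC3 and GABARAP transcripts in CPM per kilobase of exon (y axis), 1 point per library, with the mean and SD (n = 3) beside the HOM and WT points. Map1lc3b lies apart between genotypes with mean levels of 40.7 in HOM and 28.5 in WT libraries, and Map1lc3a overlaps.

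Per kilobase of exon, Sqstm1 was the highest of the 37 transcripts in both genotypes, at 213 ± 18.4 CPM per kilobase in HOM and 231 ± 16.5 in WT libraries. Next in HOM libraries came Gabarapl1 (104 ± 13.1 CPM per kilobase), Gabarap (99.0 ± 2.30), Pink1 (85.1 ± 9.01) and Map1lc3a (83.8 ± 7.27). Gabarapl1 and Gabarap overlapped between libraries, as did Pink1 and Map1lc3a. In WT libraries the order was Gabarap (91.9 ± 4.16 CPM per kilobase), Map1lc3a (79.8 ± 9.78), Gabarapl1 (78.0 ± 5.70) and Pink1 (66.1 ± 5.93), with overlap between Map1lc3a and both of its neighbours. Bnip3 was 6th in HOM libraries at 41.1 ± 17.3 CPM per kilobase and 16th in WT libraries at 9.52 ± 1.58. These places rest on the union of all annotated exons. With the length of the principal transcript instead, Map1lc3b stood at 121 CPM per kilobase in HOM and 84.5 in WT libraries, in 3rd place in HOM and 5th in WT, where the union length puts it 7th in both. Within the LC3 and GABARAP transcripts, Map1lc3b made up 11.4 ± 0.12% of the summed level per kilobase in HOM and 9.34 ± 0.46% in WT libraries, and Gabarap 27.7 ± 0.76% in HOM and 30.1 ± 0.25% in WT libraries, each without overlap.

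Among the receptors for ubiquitin-tagged cargo, 1 of 3 genes rose. Optn (chr2:5020642-5064051, minus strand), which encodes optineurin, had 22.2, 15.9 and 24.9 CPM in HOM libraries and 15.3, 10.015 and 12.4 CPM in WT libraries. Replicate 2 was the lowest library in each genotype, and HOM replicate 2 lay only just above WT replicate 1 (log2 fold change 0.73, SE 0.21, edgeR adjusted p = 0.0356). The call was lost without HOM replicate 1, HOM replicate 3, WT replicate 2 or WT replicate 3, with adjusted p-values of 0.0921 to 0.124. Sqstm1, the gene of the receptor p62 and the most abundant of the 37, had 719, 777 and 653 CPM in HOM libraries and 719.8, 772 and 831 CPM in WT libraries. The ranges overlapped broadly, and the interval of the log2 fold change ran from -0.41 to 0.18. Nbr1, a receptor that works with p62, averaged 252 ± 5.89 CPM in HOM and 208 ± 5.07 CPM in WT libraries without overlap (log2 fold change 0.28, SE 0.11, edgeR adjusted p = 0.0910).

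The genes of mitophagy held both the greatest rise and the only fall that passed. Bnip3 (chr7:138890836-138909519, minus strand), which encodes a mitochondrial outer membrane receptor that binds LC3 directly and is known as a target of hypoxia signalling, had 98.3, 51.7 and 129 CPM in HOM libraries, against 21.3, 18.1 and 25.3 CPM in WT libraries. Every HOM library was above every WT library, but the HOM libraries also differed widely among themselves, with replicate 2 lowest and replicate 3 highest. The means were 93.2 ± 39.1 CPM in HOM and 21.6 ± 3.58 CPM in WT libraries, a fold of 4.30 (log2 fold change 2.10, SE 0.29, edgeR adjusted p = 0.0016). Leaving out any 1 library gave log2 fold changes of 1.79 to 2.39, with adjusted p-values of at most 0.0120.

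Other measures differed between the same libraries. HOM replicate 3, highest for Bnip3, also had the highest summed level of adipocyte markers, 1035 CPM. The sums were 454 and 474 CPM in HOM replicates 1 and 2 and 185 to 302 CPM in WT libraries. Most of each sum was Fabp4, with 354, 407 and 615 CPM in HOM libraries and 180 to 293 CPM in WT libraries. Adipoq, the adipocyte hormone adiponectin, had 9.09, 6.47 and 37.2 CPM in HOM libraries and 0.231, 0.318 and 0.508 CPM in WT libraries. Cidec had 18.3, 10.9 and 64.7 CPM in HOM libraries and 0, 0 and 0.127 CPM in WT libraries. Cfd had 49.5, 36.3 and 280 CPM in HOM libraries and 0.116, 0 and 0.127 CPM in WT libraries. Retn, too low to be tested, had 1.68, 1.27 and 8.12 CPM in HOM libraries and 0, 0 and 0.127 CPM in WT libraries. Lep, which encodes leptin, had 0 reads in every HOM library. HOM replicate 2, lowest for Bnip3, had the highest satellite marker sum of the HOM libraries, 2148 CPM against 1331 and 1337 CPM. Of 8 pericyte and smooth muscle markers, 3 were higher and 1 was lower, and the 3 were also lowest in replicate 2 among HOM libraries. Abcc9 had 839.7, 325 and 765 CPM in HOM libraries and 193 to 227 CPM in WT libraries. Kcnj8 had 246, 104 and 226 CPM in HOM libraries and 58.2 to 84.1 CPM in WT libraries, and Pdgfrb 758, 504 and 693 CPM in HOM libraries and 285 to 349.96 CPM in WT libraries. The part of these differences in the level of Bnip3 was not tested. Of the 50-base stretches of Bnip3, 62.4% also occur in other annotated genes, of which AC160336.1 shares the most. On the opposite strand, 22.3% of its exon length is overlapped by Gm45507. That gene had 7 reads in all HOM and 4 in all WT libraries, against 2180 and 497 for Bnip3. The count of Bnip3 is uncertain to that extent.

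Fundc1 (chrX:17556564-17572325, minus strand), which encodes another LC3-binding receptor of the mitochondrial outer membrane, had 19.0, 15.1 and 15.1 CPM in HOM libraries, against 24.9, 25.8 and 28.4 CPM in WT libraries. All HOM libraries were below all WT libraries (log2 fold change -0.69, SE 0.15, edgeR adjusted p = 0.0107). Bnip3l, the paralogue of Bnip3 also called Nix, had 154, 129 and 133 CPM in HOM libraries and 100.1, 101 and 119.6 CPM in WT libraries. It was above WT in every HOM library and missed the threshold narrowly (log2 fold change 0.38, SE 0.12, edgeR adjusted p = 0.0532). Pink1, the kinase that accumulates on damaged mitochondria, had 221, 254 and 207 CPM in HOM libraries and 190.3, 180.4 and 159 CPM in WT libraries, again without overlap and without passing (log2 fold change 0.36, SE 0.13, edgeR adjusted p = 0.0666).

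The promoter of Bnip3 is shown as that of the gene that changed most. It is the 250 bases before the start in RefSeq on GRCm38.p6, at chr7:138909507-138909756 on the minus strand, with the E-box CACGTG in capitals.
Bnip3: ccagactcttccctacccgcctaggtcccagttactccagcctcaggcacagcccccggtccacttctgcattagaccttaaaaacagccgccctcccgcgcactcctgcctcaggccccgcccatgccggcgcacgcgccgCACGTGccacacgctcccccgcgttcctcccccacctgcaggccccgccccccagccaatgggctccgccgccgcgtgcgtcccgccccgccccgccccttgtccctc
The letters lie 108 bases before the start. ACGTG on either strand, a form of the core of the hypoxia response element, lies within CACGTG and so is also in this promoter. Only that form of the core was searched. It was in 7 of the 21 windows (33.3%, against 21.6% of all windows), in 2 of the 8 called genes searched and in 5 of the 13 others. The letters of a FoxO site, GTAAACA on either strand, were in 0 of the 21 windows and 3.03% of all windows. Median GC content was 61.7% in the windows of the list and 56.0% in all windows, so the shares of motifs that hold CG are not matched for base composition.

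TFEB and TFE3 switch on many autophagy and lysosome genes, mostly through their location in the cell rather than their amount. Tfeb had 12.03, 18.9 and 13.5 CPM in HOM libraries and 17.1, 16.1 and 17.6 CPM in WT libraries. HOM replicate 2 was the highest of all 6 libraries and the other HOM libraries the lowest, and the gene did not pass (log2 fold change -0.19, interval -0.60 to 0.22). Tfe3 averaged 29.5 ± 2.55 CPM in HOM and 30.3 ± 1.20 CPM in WT libraries, with overlap and an interval of -0.32 to 0.23.

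**Figure D3:**
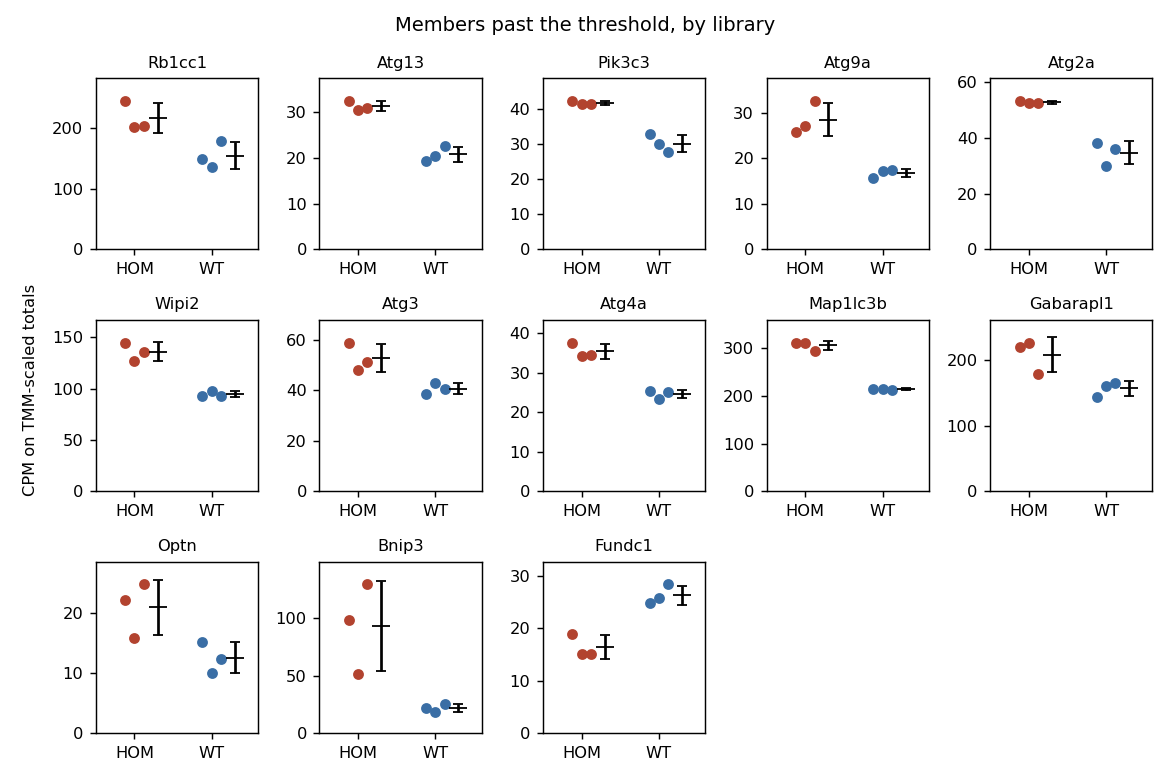
CPM (y axis, from 0 in each panel) of the 13 genes past the threshold, 1 point per library, with the mean and SD (n = 3) beside the HOM and WT points. No panel shows overlap between genotypes, and Bnip3 has the widest spread among HOM libraries, 51.7 to 129 CPM.

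Not all 13 calls were equally firm. Atg9a, Atg2a, Wipi2, Atg4a, Map1lc3b, Bnip3 and Fundc1 passed under all 14 alternatives tried, and all 13 kept their direction under all of them. Pik3c3 was lost without HOM replicate 1, HOM replicate 3, WT replicate 2 or WT replicate 3, with adjusted p-values of 0.0507 to 0.0664, and Rb1cc1 without HOM replicate 1, HOM replicate 3, WT replicate 1 or WT replicate 2, with adjusted p-values of 0.0622 to 0.114. Atg13 was lost only without WT replicate 1 (edgeR adjusted p = 0.0558). Sequence shared with another annotated gene makes further counts uncertain, with 42.6% of the 50-base stretches of Atg9a and 18.6% of those of Gabarapl1 found elsewhere. The count of higher genes was 7 without HOM replicate 1, where 4.87% of all genes were called higher, 7 without WT replicate 2, where 5.38% were, and 8 without WT replicate 1, where 4.53% were. Without HOM replicate 2 and WT replicate 2 together, 12 genes were higher, where 11.8% of all genes were, and 1 was lower.

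**Figure D4:**
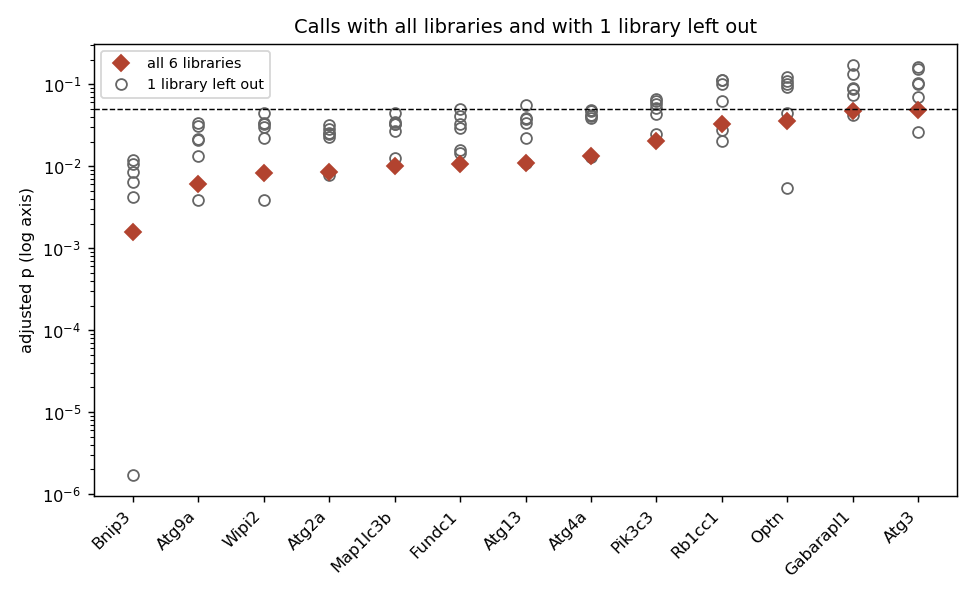
Adjusted p (y axis, log axis) of the 13 called genes with all 6 libraries (diamonds) and with each library left out in turn (circles), with the threshold of 0.05 as a dashed line. All circles of Bnip3, Atg9a, Wipi2, Atg2a, Map1lc3b, Fundc1 and Atg4a lie below the line, and those of Gabarapl1 and Atg3 lie mostly above it.

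A wider list of 98 genes that act around this machinery was set beside the 37. Of the 96 that could be tested, 18 rose (18.8%, against 9.67% of all genes) and 6 fell (6.25%, against 11.5%), and the median log2 fold change was 0.15. The count that rose was 11 without HOM replicate 1, 11 without HOM replicate 3 and 10 without WT replicate 1, where 4.87%, 4.78% and 4.53% of all genes rose, and the count that fell was 10 without HOM replicate 2, where 15.4% of all genes fell. None of 5 further transcription factors passed by edgeR (1 had an unadjusted p under 0.05) or by DESeq2. In the control of autophagy by the kinases mTORC1 and AMPK, 7 of 33 genes rose (21.2%, against 9.67% of all genes) and 1 fell (3.03%, against 11.5%). Flcn, the gene of folliculin, which acts on the Rag GTPases that recruit mTORC1, had 98.3, 89.2 and 89.7 CPM in HOM libraries and 47.8, 44.0 and 48.4 CPM in WT libraries (log2 fold change 0.98, SE 0.11, edgeR adjusted p = 0.0007). Its HOM libraries were all far above WT. The mTORC1 inhibitors Tsc1, Sesn1 and Ddit4 rose with log2 fold changes of 0.94 (SE 0.13), 0.98 (SE 0.14) and 0.83 (SE 0.11). Other inhibitors of the list, such as Tsc2, Sesn2 and Deptor, were not called higher. The remaining rises were Mtor, the kinase itself, Fnip2 and Rragc, so the rises were not limited to inhibitors.

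Among the other core and regulatory factors, 5 of 15 rose (33.3%, against 9.67% of all genes) and 2 fell (13.3%, against 11.5%). The related genes Trp53inp1 and Trp53inp2 went opposite ways. Trp53inp1, a p53-induced gene whose product binds LC3, had 855, 499 and 599 CPM in HOM libraries, against 153, 155 and 161 CPM in WT libraries. Trp53inp2, which encodes the LC3 and GABARAP binder DOR, had 40.3, 39.5 and 41.6 CPM in HOM libraries, against 80.0, 102 and 67.8 CPM in WT libraries. The log2 fold changes were 2.06 (SE 0.19, edgeR adjusted p = 0.0004) and -1.04 (SE 0.15, edgeR adjusted p = 0.0020), and neither gene overlapped between genotypes. Bcl2l1, which encodes the BCL-XL protein that binds beclin 1, averaged 66.5 ± 11.5 CPM in HOM and 32.7 ± 3.23 CPM in WT libraries (log2 fold change 1.02, SE 0.15). Tmem41b, an endoplasmic reticulum scramblase, averaged 42.4 ± 2.29 CPM in HOM and 62.5 ± 1.87 CPM in WT libraries (log2 fold change -0.56, SE 0.11).

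Of 14 further cargo receptors and their kinase, 2 rose (14.3%, against 9.67% of all genes) and 1 fell (7.14%, against 11.5%). Retreg1, the endoplasmic reticulum receptor FAM134B, averaged 99.8 ± 14.6 CPM in HOM and 48.4 ± 6.05 CPM in WT libraries (log2 fold change 1.04, SE 0.14, edgeR adjusted p = 0.0015). Tbk1, the kinase of optineurin and p62, rose at a log2 fold change of 0.55 (SE 0.16), and Stbd1, the glycogen receptor, fell at one of -1.10 (SE 0.28). Both calls were lost without HOM replicate 1, HOM replicate 3, WT replicate 1 or WT replicate 2.

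Of 15 further mitophagy factors, 1 rose (6.67%, against 9.67% of all genes) and 2 fell (13.3%, against 11.5%), shares near those of all genes. Their median log2 fold change was -0.07. Fundc2, the paralogue of Fundc1, averaged 35.6 ± 3.33 CPM in HOM and 53.8 ± 3.98 CPM in WT libraries (log2 fold change -0.59, SE 0.12, edgeR adjusted p = 0.0085), so both FUNDC genes were lower. Mfn1, a mitochondrial fusion GTPase and a target of PINK1 and parkin, rose with a log2 fold change of 0.51 (SE 0.12). Nipsnap1, a mitochondrial protein that marks damaged mitochondria for autophagy, was at 2.65 ± 0.479 CPM in HOM and 5.36 ± 0.629 CPM in WT libraries, and its call was lost without HOM replicate 1, HOM replicate 3, WT replicate 2 or WT replicate 3. Of 14 genes for fusion with lysosomes, 3 rose (21.4%, against 9.67% of all genes) and 0 fell (0%, against 11.5%) by edgeR. DESeq2 also called 3 higher and 0 lower, and 5 had an unadjusted p under 0.05 in either direction by edgeR. The 3 that rose by edgeR were Vps16 (log2 fold change 0.53, SE 0.12) and Vps11 (0.50, SE 0.12), subunits of the HOPS tethering complex, and Plekhm1 (0.58, SE 0.13), an adaptor that binds HOPS and LC3. Vps11 was lost without HOM replicate 1, HOM replicate 3, WT replicate 1 or WT replicate 2, and Plekhm1 without HOM replicate 3 or WT replicate 1.

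**Figure D5:**
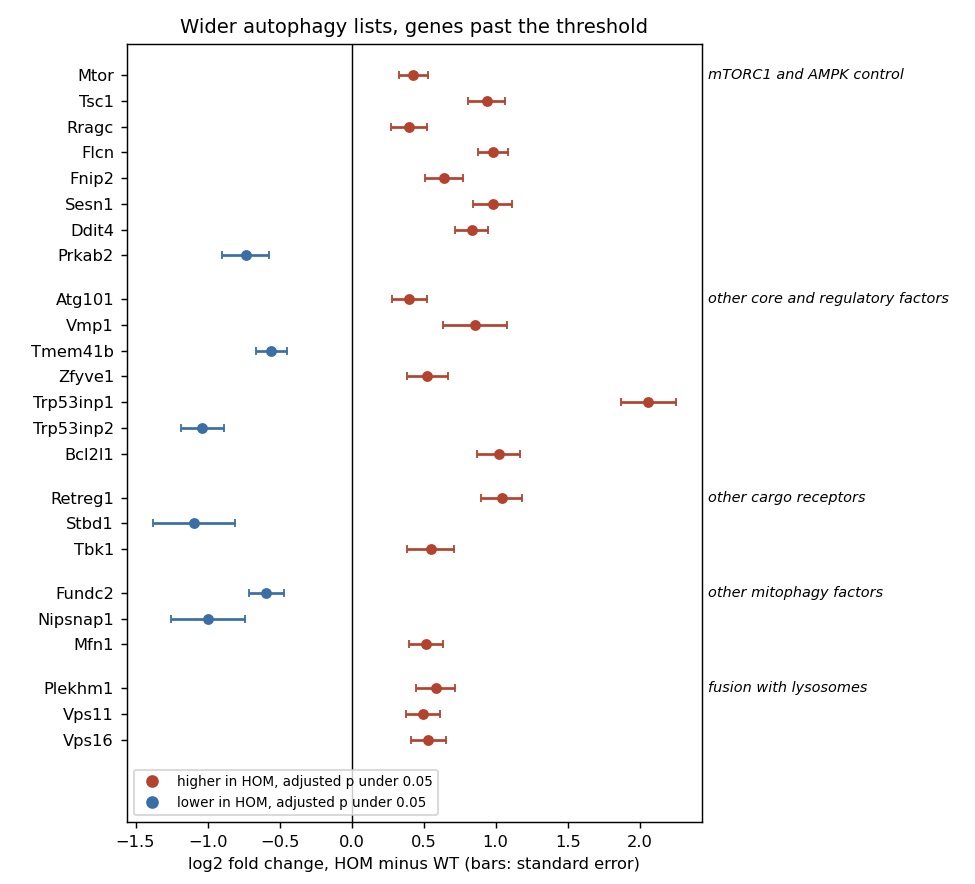
Log2 fold changes (x axis, HOM minus WT) of the 24 genes of the wider lists that passed the threshold, with bars of 1 standard error from the fit over 3 HOM and 3 WT libraries. Trp53inp1 lies highest at 2.06 and Stbd1 lowest at -1.10.

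Lysosome and proteasome genes, the end stations of protein breakdown, were set beside these lists. Of 41 lysosomal genes, all tested, 6 rose (14.6%, against 9.67% of all genes) and 7 fell (17.1%, against 11.5%). Calls in either direction made up 31.7% of them, against 21.1% of all genes, and their median log2 fold change was -0.08. Of 31 proteasome genes, 0 rose and 1, Psmd14, fell (3.23%, against 11.5% of all genes), with a median log2 fold change of -0.01 (edgeR). Of these, 2 had an unadjusted p under 0.05, and DESeq2 called 1 higher and 1 lower. The difference between these lists and the 37 autophagy genes was not tested.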

How the data were processed

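For each of 6 libraries of sorted satellite cells the authors deposited 1 file of raw counts, with a row per Ensembl gene. Libraries kept strand and were depleted of ribosomal RNA, per the labels' protocols. The submitters' processing notes list Trimmomatic 0.32, STAR 2.5.2b and HTSeq 0.6.1, with mm10 as the build. Not given in the sources used here are the strand setting and annotation of the counting. Reads of genes that overlap on opposite strands may therefore not have been told apart. Summary lines (reads outside genes, ambiguous or with more than 1 alignment) made up 45.0 to 49.8% of reads and were left out. Of the 39059 genes, 38861 matched GENCODE M21 (GRCm38), which supplied symbols, positions and exon lengths.

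Groups were taken from the sample titles. Low genes were removed with filterByExpr (minimum count 10, minimum total 15), and the rest scaled with TMM factors and compared with the quasi-likelihood test of edgeR 4.0.16 in R 4.3.3, with no covariate and Benjamini-Hochberg adjustment over 14099 genes. The common biological coefficient of variation was 0.162. CPM are on TMM-scaled totals. Log2 fold changes are HOM minus WT. Their standard error is the size divided by the square root of F, and 95% intervals use the t distribution with the degrees of freedom of the fit. Libraries of 1 genotype differed by a chi-square of 9.16 to 25.08 per gene, more than sampling noise. On simulated counts of 13873 genes, the test recovered 63.6% of 2-fold and 98% of 4-fold changes, with 8% of its calls false. Only 99 genes were changed 2-fold and 100 genes 4-fold there, a far smaller share than was called in the data. Changes under 2-fold, the size of most calls in the list, were not simulated, so these rates need not hold for them.

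The list, the wider lists, the markers and the alternatives were chosen with earlier results of these data known. All 37 genes are named. Of each wider list, up to 4 called genes with the smallest p are named. Psmd14 was named after its value was seen. Alternatives were DESeq2 size factors, library totals, DESeq2 1.42.0, no filter and a filter of 1 CPM in 3 libraries. Others were the replicate number as a block and Y-linked reads, high or low, as a covariate. The rest left out each library in turn, or both libraries high in Gm42418. Promoter windows span 250 bases before to 50 after a RefSeq start, and those with a start over 100 bases from the annotated gene's first base were left out. No set test was run.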

Additional observations from a re-analysis of the deposited data

How the results depend on the processing

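The median log2 fold change of the 37 genes stayed between 0.28 and 0.32 under all 14 alternatives, and the count of lower genes stayed at 1. Leaving out each library in turn gave 7 to 13 higher genes, where 4.53 to 12.1% of all genes were higher, and 8 to 14 called genes, where 10.9 to 27.5% of all genes were called. In the wider lists it gave 10 to 18 higher genes (11 without HOM replicate 1, 11 without HOM replicate 3, 10 without WT replicate 1) and 4 to 10 lower genes (10 without HOM replicate 2). Over all genes tested, same-numbered HOM and WT libraries did not deviate together (correlations of -0.036, 0.022 and -0.096 for replicates 1, 2 and 3). These correlations cannot exclude a batch that acts on part of the genes. HOM replicate 2 and WT replicate 2 were both high in Gm42418. Whether the numbers pair the libraries was not tested. With the replicate number as a block, 9 genes of the list were higher (7.26% of all genes) and 10 called (17.3% of all genes), and Rb1cc1, Atg3 and Gabarapl1 had adjusted p-values of 0.0504, 0.106 and 0.0943. Y-linked reads, high in HOM replicate 2 and in WT replicates 2 and 3, were not balanced between genotypes. Fitted as a covariate of high or low, they left 8 higher genes (5.62% of all genes). Library totals gave 14 higher genes (9.55%). Atg3 also missed the threshold with DESeq2 (adjusted p = 0.0802) and with no filter (adjusted p = 0.0702). 5 genes near 0 changed sign. The log2 fold change of Uvrag was 0.010 with library totals and 0.012 with the Y-linked covariate, and leaving out each library gave -0.066 to 0.090. For Atg7 it was -0.018 without both libraries high in Gm42418, and -0.073 to 0.098 leaving out each library. For Atg12 it was 0.0011 without both of those libraries, and -0.10 to 0.011 leaving out each. Leaving out each library gave -0.12 to 0.010 for Tfe3 and -0.010 to 0.17 for Map1lc3a. The cause of these changes was not tested. A gene that did not pass is not shown to be unchanged, since 8 of the 24 such genes had an adjusted p under 0.1.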

Other observations

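7 further genes of the wider lists passed the threshold without being among the 4 with the smallest p of their list, and are named here with their values known. In the control of mTORC1 and AMPK, Mtor, the kinase itself, averaged 89.9 ± 5.18 CPM in HOM and 66.7 ± 1.81 CPM in WT libraries (SD, n = 3 each, log2 fold change 0.43, SE 0.10). Fnip2, a partner of folliculin, averaged 99.3 ± 12.99 CPM in HOM and 63.6 ± 6.86 CPM in WT libraries, and Rragc, a Rag GTPase, 73.9 ± 10.5 CPM in HOM and 56.0 ± 1.64 CPM in WT libraries. Prkab2, a regulatory subunit of AMPK, was the lower gene of that list, at 40.8 ± 4.47 CPM in HOM and 67.9 ± 15.1 CPM in WT libraries (log2 fold change -0.73, SE 0.16).

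Atg101, the partner of ATG13 in the ULK complex, averaged 33.2 ± 0.393 CPM in HOM and 25.2 ± 2.26 CPM in WT libraries (log2 fold change 0.40, SE 0.12). Zfyve1, which encodes the omegasome marker DFCP1, averaged 52.5 ± 8.47 CPM in HOM and 36.5 ± 3.09 CPM in WT libraries. Vmp1, a scramblase that works beside TMEM41B, had 165, 95.2 and 165 CPM in HOM libraries and 67.8, 67.7 and 99.4 CPM in WT libraries, where HOM replicate 2 lay below WT replicate 3 (log2 fold change 0.85, SE 0.22, edgeR adjusted p = 0.0234). Vmp1 and Tmem41b therefore passed in opposite directions.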
